A study of Mus musculus and Homo sapiens with 43 samples.

Results

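The naive pluripotency circuit of mouse embryonic stem cells (ESC) was followed through 10 genes chosen by name: Klf2, Klf4, Klf5, Esrrb, Tfcp2l1, Tbx3, Nr0b1, Prdm14, Fbxo15 and Dppa3. All 10 were found by symbol among the 35245 genes of the deposited table that holds Pcgf2 KO and WT libraries, and among the 32231 genes of the table that holds Phc1 KO and Phc1-SAM KO libraries. Levels are in TPM, a share of the transcripts of a library that is corrected for transcript length, so that levels of different genes can be compared. All 10 passed the filter on low values in both tables (at least 1 TPM in at least 2 libraries), and each had at least 1 TPM in every group of ESC.

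The data used here are RNA-seq of E14 cells, a mouse ESC line, in 24 libraries that made 12 groups of 2. Pcgf2 KO and WT cells were each measured as ESC, as embryoid bodies (EB, cell aggregates that differentiate) at day 3 and day 8, and as NPC (neural progenitor cells by label). Cells labelled Phc1 KO and cells labelled Phc1-SAM KO were each measured as ESC and NPC. Pcgf2 and Phc1 are subunits of the Polycomb repressive complex PRC1, and the SAM domain is the part of Phc1 that lets Phc proteins polymerise. ESC medium held serum, LIF, 1 µM PD0325901 (an inhibitor of MEK) and 3 µM CHIR99021 (an inhibitor of GSK3), EB were grown without LIF and the inhibitors, and NPC medium lacked them and held 5 µM retinoic acid. Every group shares the E14 background and the serum. The labels do not say how a knock-out was made, whether a genotype is 1 clone, on which day NPC were taken or whether replicates were separate cultures. The p-values therefore measure only how the libraries of a group differ, which may be technical.

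In mouse ESC the naive state is held by a set of transcription factors that sustain each other and are fed by external signals. LIF acts through Stat3 on Klf4 and Tfcp2l1, inhibition of GSK3 relieves the repression of Esrrb, Klf2 and Tfcp2l1 by Tcf7l1, and inhibition of MEK blocks the ERK signal that drives exit. When the signals are withdrawn these factors are shut off early, before the core factors Pou5f1 and Sox2, and a formative state with Fgf5, Otx2 and Pou3f1 follows.

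Start regions are shown for 3 members of different protein families that were all higher in Pcgf2 KO than in WT NPC: Tfcp2l1 (a CP2-family factor downstream of LIF), Esrrb (an orphan nuclear receptor) and Klf4 (a zinc finger factor). In RefSeq's table for GRCm38.p6, 5 of the 10 members had an entry and 4 are described here; Klf5, Tbx3, Prdm14, Dppa3 and Fbxo15 are named only. Each region runs from 250 bases before to 50 bases after an annotated start, printed 5′ to 3′ on the strand of the gene. Capitals mark matches, on either strand, to GGGNGTGG (a box bound by KLF factors), AAGGTCA (a site bound by Esrrb) or TTCNNNGAA (a site bound by STAT factors), and no matches overlapped.
Tfcp2l1, chr1:118627695-118627994, plus strand: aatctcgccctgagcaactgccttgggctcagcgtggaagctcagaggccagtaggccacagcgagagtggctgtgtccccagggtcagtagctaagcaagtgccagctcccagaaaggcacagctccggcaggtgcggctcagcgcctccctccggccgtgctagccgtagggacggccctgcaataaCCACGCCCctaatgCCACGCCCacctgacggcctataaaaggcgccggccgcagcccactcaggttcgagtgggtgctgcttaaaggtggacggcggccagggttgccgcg
Esrrb, chr12:86360867-86361166, plus strand: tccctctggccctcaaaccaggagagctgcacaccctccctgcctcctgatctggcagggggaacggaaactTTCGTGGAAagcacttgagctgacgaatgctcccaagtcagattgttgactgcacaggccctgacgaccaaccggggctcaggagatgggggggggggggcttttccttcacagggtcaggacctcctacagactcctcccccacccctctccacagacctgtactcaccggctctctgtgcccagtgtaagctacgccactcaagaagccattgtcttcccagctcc
Klf4, chr4:55532426-55532725, minus strand: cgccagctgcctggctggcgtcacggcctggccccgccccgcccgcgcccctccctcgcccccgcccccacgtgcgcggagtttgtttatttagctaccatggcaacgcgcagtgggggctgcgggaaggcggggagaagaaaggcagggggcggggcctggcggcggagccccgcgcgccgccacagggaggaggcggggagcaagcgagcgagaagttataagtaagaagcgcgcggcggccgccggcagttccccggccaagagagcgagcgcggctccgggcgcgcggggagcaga
The Tfcp2l1 region held 2 KLF boxes, whose first bases lie 61 and 47 bases before the start, and a KLF box was found in 17.6% of all 32851 RefSeq start regions of this length. The Esrrb region held 1 STAT site, 178 bases before the start, and such a site was found in 8.3% of all regions. No Esrrb site was found in the 5 regions of the 4 members, and 4.72% of all regions held one. The Klf4 region, a later Esrrb start (chr12:86421394-86421693) and the Nr0b1 region (chrX:86191525-86191824) held no match to the 3 motifs. The Klf4 region held 40 CpG, the Tfcp2l1 region 21, the Nr0b1 region 14 and either Esrrb region 7, with a median of 7 over all regions. A match to letters is a description of the sequence.

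Column totals were 997200 to 1005000 TPM in the 16 libraries with Pcgf2 KO and WT cells and 975900 to 980200 TPM in the 8 libraries with Phc1 KO and Phc1-SAM KO cells. Across genes, r between replicates was 0.9928 to 0.9948 in the first table and 0.9924 to 0.9954 in the second. The depth of a library is unknown, since read counts cannot be had from TPM. The transcript of Pcgf2 was not lower in the libraries labelled Pcgf2 KO (151 to 232 TPM as group means) than in WT libraries (73.6 to 152 TPM), and Phc1 was at 151 ± 0.88 TPM in Phc1 KO ESC and 256 ± 14 TPM in Phc1-SAM KO ESC (SD, n = 2 each). A level summed over a gene is blind to the removal of a few exons or of one domain. These levels therefore check no label, and genotypes are given as labelled. Eif2s3y, a Y-linked gene, was at 48.2 to 70.9 TPM in the 4 Pcgf2 KO groups, at 0.435, 2.12 and 1.58 TPM in WT ESC, EB day 3 and NPC, and at 57.5 TPM in WT EB day 8. It was thus apart between Pcgf2 KO and WT in ESC, EB day 3 and NPC and near equal only at EB day 8, where WT stands apart from the other WT groups. It was at 14.9 TPM in Phc1 KO ESC and 3.59 TPM in Phc1-SAM KO ESC, and at 31.2 TPM in Phc1 KO NPC and 35.7 TPM in Phc1-SAM KO NPC. A difference of cell stock therefore cannot be told apart from genotype in the Pcgf2 KO over WT comparisons in ESC, EB day 3 and NPC and in Phc1 KO over Phc1-SAM KO in ESC. It cannot be told apart from stage in changes to or from WT EB day 8 and from ESC to NPC in the Phc1 genotypes. When the WT EB day 8 libraries were left out of the fit, the number of members called in each comparison that does not use them was the same.

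In ESC, where the circuit is meant to be on, the members spanned a wide range. In Pcgf2 KO ESC the order was led by Esrrb at 242 ± 7.2 TPM, and Klf4 (178 and 186 TPM), Fbxo15 (164 and 183 TPM) and Klf2 (171 and 173 TPM) followed with overlapping or adjoining libraries. WT ESC had Klf2 highest at 261 ± 2.4 TPM, then Esrrb at 210 ± 6.9, Fbxo15 at 109 ± 4.5, Klf4 at 100 ± 2.5 and Tbx3 at 93.2 ± 2.9 (SD, n = 2 each). Below these stood Tfcp2l1 at 77.5 ± 10 TPM, Nr0b1 at 57.1 ± 3.2, Klf5 at 45.2 ± 2.5, Prdm14 at 13 ± 0.87 and Dppa3 at 2.13 ± 0.46 (SD, n = 2 each). No neighbours in that order had overlapping libraries. Dppa3, a maternal and germ cell factor, was thus the one member near the filter in ESC.

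**Figure D1:**
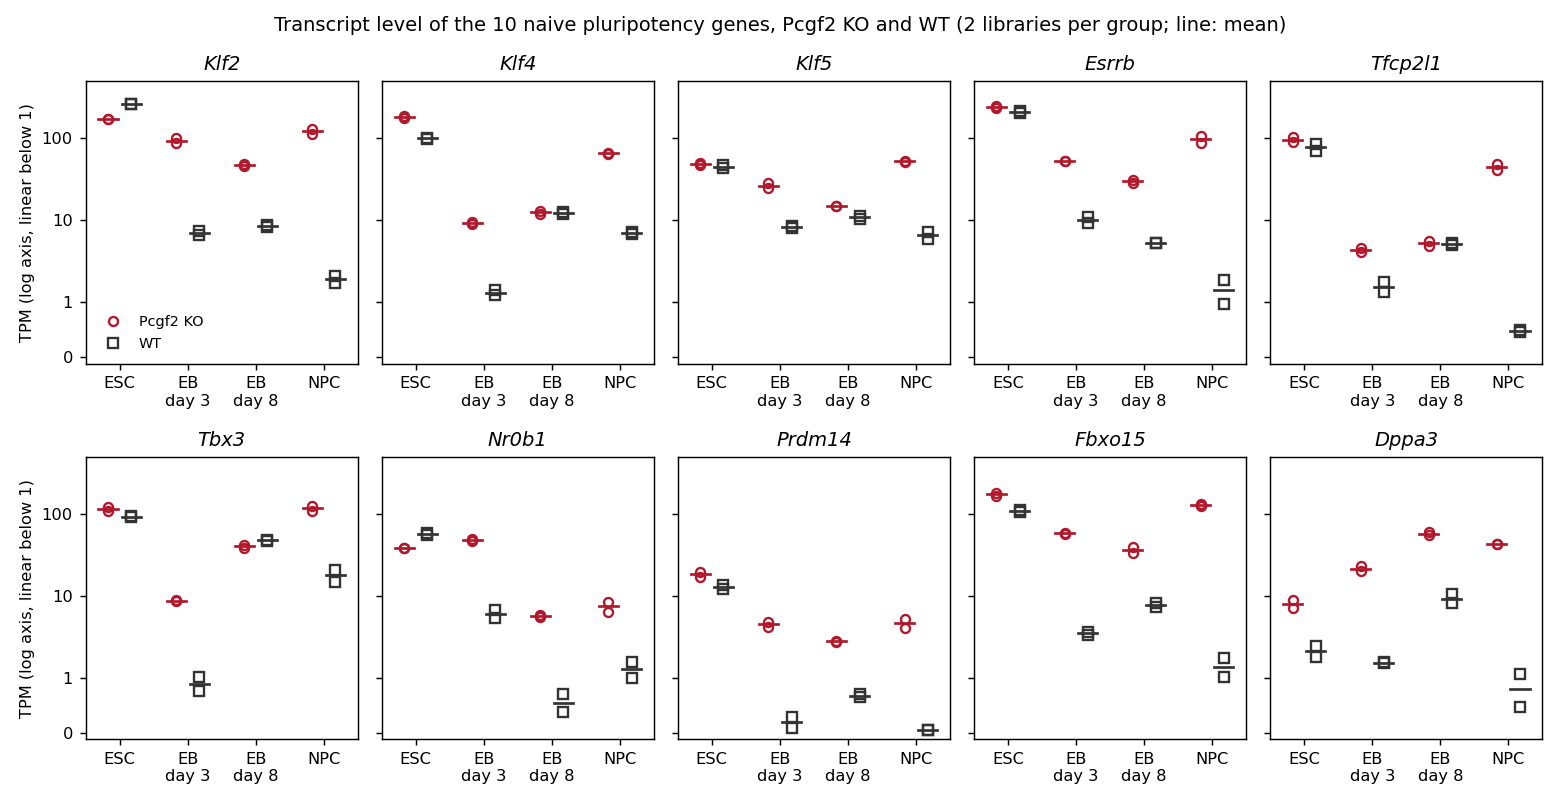
Transcript level of each member (TPM, log axis that is linear below 1) in Pcgf2 KO (red circles) and WT (grey squares) libraries at the 4 stages; points are the 2 libraries of a group and lines their mean. Pcgf2 KO and WT lie closer in ESC than in NPC. Klf2 was at 171 and 173 TPM in Pcgf2 KO against 260 and 263 TPM in WT ESC. In NPC it was at 130 and 113 TPM in Pcgf2 KO against 1.72 and 2.11 TPM in WT.

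In ESC labelled Pcgf2 KO all 10 members were expressed, and single members differed from WT in both directions. Of the 10 members, 4 were higher in Pcgf2 KO than in WT ESC, where 24.9% of the 17938 genes tested were called higher. Another 2 were lower, where 11.0% were called lower, and 4 were not called (limma on log2(TPM + 1), Benjamini-Hochberg adjusted p at most 0.05 over all genes). The median member log2 difference was 0.31, beside 0.1 over all genes, so the counts stand near a background in which many genes moved. In these bulk samples fewer cells of a type and less RNA per cell cannot be told apart. Klf4 was at 178 and 186 TPM in Pcgf2 KO ESC and 102 and 98.2 TPM in WT ESC, a log2 fold change of 0.86 ± 0.07 (SE, adjusted p = 6.5e-06). Fbxo15, an F-box protein gene long used as an ESC reporter, was at 164 and 183 TPM in Pcgf2 KO and 112 and 106 TPM in WT ESC (0.67 ± 0.13, adjusted p = 0.0019). Dppa3 was at 7.26 and 8.89 TPM in Pcgf2 KO and 2.45 and 1.8 TPM in WT ESC (1.54 ± 0.18, adjusted p = 6.1e-05). Each of these genes was higher in both Pcgf2 KO libraries than in either WT library. Klf2 was lower, at 171 and 173 TPM in Pcgf2 KO and 260 and 263 TPM in WT ESC (-0.6 ± 0.09, adjusted p = 0.00045). The calls of Prdm14 (higher, 0.47 ± 0.13, adjusted p = 0.016) and Nr0b1 (lower, -0.56 ± 0.16, adjusted p = 0.017) were the weak ones. Without WT replicate 2 their adjusted p were both 0.1, without Pcgf2 KO replicate 2 they were 0.11 and 0.073, and without Pcgf2 KO replicate 1 that of Nr0b1 was 0.052. With a pseudocount of 0.1 they were 0.19 and 0.097, and Prdm14 was also lost under quantile normalization (0.23, adjusted p = 0.17) and median-of-ratios scaling (0.29, 0.067). Klf5, Esrrb, Tfcp2l1 and Tbx3 were between 0.11 and 0.31 higher on the log2 scale without passing the test.

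From ESC to EB day 3 the circuit was turned down less in Pcgf2 KO than in WT cells. EB day 3 differs from ESC in the removal of LIF and the inhibitors, in aggregation and in time, which cannot be told apart. All 10 members were higher in Pcgf2 KO than in WT EB day 3, where 16.7% of all genes were called higher, with log2 fold changes of 1.09 (Tfcp2l1) to 3.72 (Fbxo15) and a median of 2.34 beside -0.11 over all genes. The summed level was 330 TPM in Pcgf2 KO and 40.5 TPM in WT EB day 3. Relative to their own ESC, 8 members fell in Pcgf2 KO EB day 3 (27.0% of all genes were called lower). Dppa3 rose by 1.32 ± 0.18 (adjusted p = 0.00011; 19.2% of all genes were called higher) and Nr0b1 was not called (0.34), but was with quantile normalization (0.45, adjusted p = 0.028). The median level of the members in Pcgf2 KO EB day 3 was 29.1% of the Pcgf2 KO ESC mean, against 2.94% in WT. The difference itself was tested: the Pcgf2 KO effect was larger on EB day 3 than in ESC for 10 of 10 members, by 0.77 to 4.17 on the log2 scale, and 8.54% of all genes had such a positive difference (14.9% after quantile normalization and 17.5% after median-of-ratios scaling).

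In WT cells most of the circuit was down by day 3. Of the 10 members, 9 fell in WT EB day 3 relative to WT ESC, where 19.1% of all genes were called lower, with a median member log2 change of -4.43 beside 0.15 over all genes. The summed level of the 10 was 40.5 TPM in WT EB day 3 against 968 TPM in WT ESC, and 7 members were under 10% of their ESC mean. Dppa3 was the member not called (1.51 and 1.58 TPM in EB day 3, 2.45 and 1.8 TPM in ESC, -0.29). It was called lower under quantile normalization (-0.53, adjusted p = 0.013) and under median-of-ratios scaling (-0.5, 0.021). The other naive markers listed alongside (Zfp42, Tcl1, Nr5a2, Dppa5a, Gbx2, Jam2, Tdh, Spic and Zfp57) fell too, 9 of 9 tested. Of the core factors Nanog fell by 1.01 and Sox2 by 0.85 on the log2 scale and Pou5f1 and Sall4 were not called. Of the formative genes 8 of 9 were higher in WT EB day 3 than in WT ESC, where 36.6% of all genes were called higher. They were led by Fgf5 at 112 TPM in EB day 3 against 0.229 TPM in ESC.

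**Figure D2:**
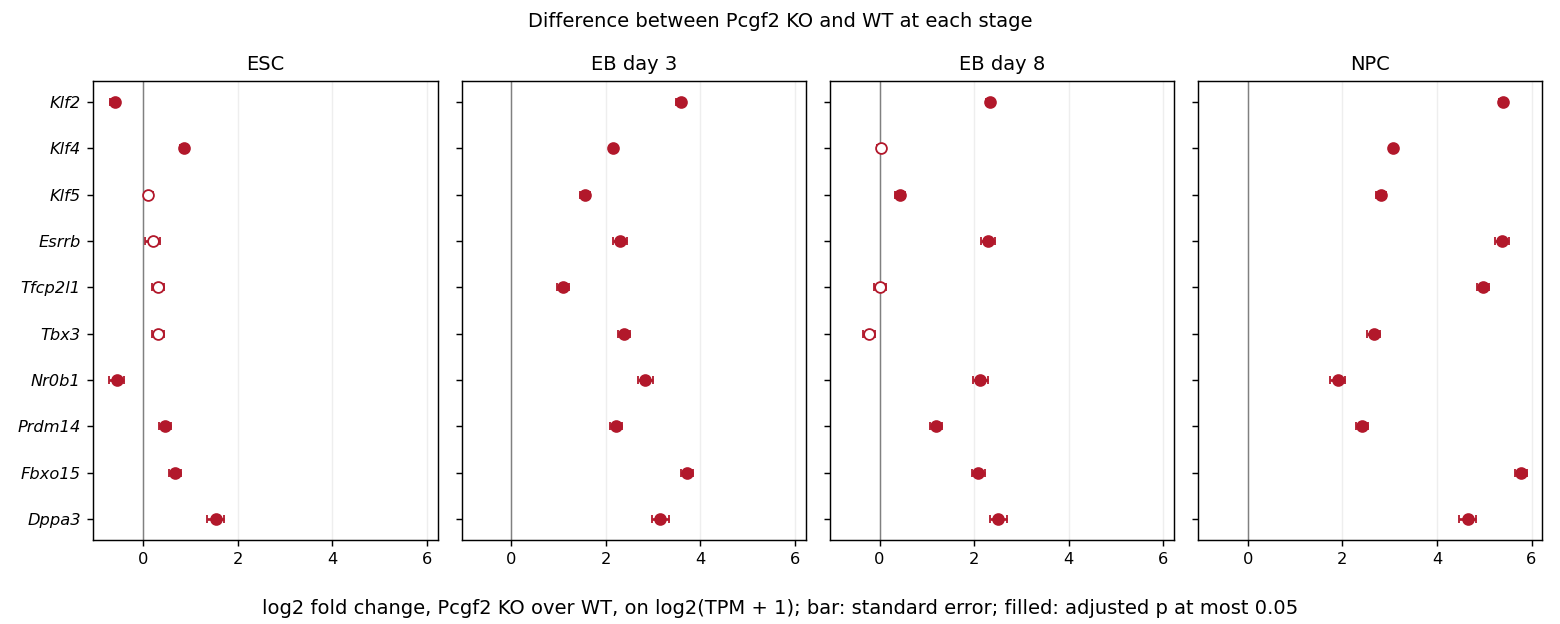
Log2 fold change of TPM + 1, Pcgf2 KO over WT, for each member at the 4 stages (bars: SE; filled points: adjusted p at most 0.05, limma). In ESC the points lie on both sides of 0, from -0.6 for Klf2 to 1.54 for Dppa3, and in NPC all 10 are filled and lie between 1.9 for Nr0b1 and 5.77 for Fbxo15.

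At EB day 8 the genotypes differed by less than at EB day 3 for most members, and 3 members were not called. Of the 10, 7 were higher in Pcgf2 KO than in WT EB day 8, where 20.6% of all genes were called higher, none was called lower and 3 were not called, with a median of 1.64 beside 0.04 over all genes. The members not called were Klf4 (13.2 and 12 TPM in Pcgf2 KO, 12.1 and 12.6 TPM in WT), Tfcp2l1 (5.61 and 4.91 TPM in Pcgf2 KO, 5.35 and 5.03 TPM in WT) and Tbx3 (42.2 and 38.8 TPM in Pcgf2 KO, 48.2 and 47.2 TPM in WT). For Klf4 and Tfcp2l1 the libraries of the genotypes overlapped. For Tbx3 they did not, and with median-of-ratios scaling it was called lower in Pcgf2 KO (-0.3, adjusted p = 0.044). In Pcgf2 KO, 3 members were higher at EB day 8 than at EB day 3 (43.0% of all genes), 6 were lower (15.7%) and Tfcp2l1 was not called. In WT, 8 members were higher at EB day 8 than at EB day 3 (33.6% of all genes were called higher) and 2, Esrrb and Nr0b1, were lower (24.0% were called lower). The Pcgf2 KO effect was smaller at EB day 8 than at EB day 3 for 8 of 10 members, with differences of -0.7 to -2.61 on the log2 scale, where 12.6% of all genes had such a negative difference. Esrrb and Dppa3 were not called, and Dppa3 was called with median-of-ratios scaling (-0.88, adjusted p = 0.012). The call of Nr0b1 in that difference (-0.7 ± 0.22, adjusted p = 0.029) turned to 0.22 with a pseudocount of 0.1, and leaving out single libraries gave adjusted p of 0.056 to 0.11 for 6 of the 8 libraries concerned. In the WT change the rise of Klf2 (0.26 ± 0.09, adjusted p = 0.029) turned to -0.08 with quantile normalization. With median-of-ratios scaling it was 0.17 (adjusted p = 0.21). Its call was lost without EB day 3 replicate 2 (adjusted p = 0.18), EB day 8 replicate 1 (0.12) or EB day 8 replicate 2 (0.057). Klf5 (0.35) was 0.01 with quantile normalization (adjusted p = 0.92) and was lost without EB day 8 replicate 2 (0.062), and Prdm14 without EB day 3 replicate 2 (0.067). The rise of Klf4 in Pcgf2 KO (0.4 ± 0.07) was -0.08 with quantile normalization and 0.09 (adjusted p = 0.34) under median-of-ratios scaling. The fall of Prdm14 in Pcgf2 KO (-0.53) was lost with a pseudocount of 0.1 (adjusted p = 0.067).

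Markers of some other cell types differed between the genotypes at this stage. Endothelium markers had overlapping sums, at 107 and 103 TPM in Pcgf2 KO and 106 and 109 TPM in WT EB day 8. Trophectoderm markers were close, at sums of 67.2 and 63.2 TPM in Pcgf2 KO and 56.2 and 54.6 TPM in WT. Mesenchyme markers summed to 173 and 154 TPM in Pcgf2 KO and 1220 and 1270 TPM in WT EB day 8, with 4 of 6 genes at 1 TPM or more in Pcgf2 KO and 6 of 6 in WT. Of these markers 6 of 6 were called lower in Pcgf2 KO, where 17.1% of all genes were called lower. Visceral endoderm markers summed to 143 and 140 TPM in Pcgf2 KO and 704 and 698 TPM in WT EB day 8, and 6 of 6 were called lower. Surface epithelium markers summed to 993 and 1080 TPM in Pcgf2 KO and 1440 and 1320 TPM in WT. Tbx3, Klf4 and Klf5 are known in such tissues as well as in ESC, and the part of these cells in their EB day 8 levels was not tested.

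The median difference between the genotypes was largest in NPC among the 4 stages, though Nr0b1 had a smaller difference there (1.9) than at EB day 3 (2.83) or EB day 8 (2.13). Whether the effect on NPC differed from that in EB day 3 was not tested. All 10 members were higher in Pcgf2 KO than in WT NPC, where 31.5% of all genes were called higher, with a median log2 fold change of 3.86 beside -0.03 over all genes and adjusted p of 6.7e-07 or less. The summed level was 684 TPM in Pcgf2 KO and 38.7 TPM in WT NPC, 8 members stood at 10 TPM or more in Pcgf2 KO and 1 (Tbx3) in WT. In Pcgf2 KO 7 members were lower in NPC than in ESC (19.3% of all genes were called lower), Dppa3 was higher (47.5% were called higher), and Klf5 and Tbx3 were not called. Klf5 was at 52.5 and 52.2 TPM in Pcgf2 KO NPC and 47.4 and 50.6 TPM in Pcgf2 KO ESC, and Tbx3 at 126 and 108 TPM in NPC and 109 and 123 TPM in ESC. Their changes of 0.09 and 0.01 were called lower with median-of-ratios scaling (-0.31 and -0.4), and Klf5 also with quantile normalization (-0.28). Fbxo15 fell by 0.44 ± 0.13 in Pcgf2 KO NPC (adjusted p = 0.011), a call lost without ESC replicate 2 (0.071) or NPC replicate 2 (0.055). In WT all 10 members were lower in NPC than in ESC (21.6% of all genes were called lower; median -4.2 beside 0.46 over all genes). The Pcgf2 KO effect was larger on NPC than in ESC for 10 of 10 members, by 1.94 to 5.99 on the log2 scale, where 23.0% of all genes had such a positive difference.

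**Figure D3:**
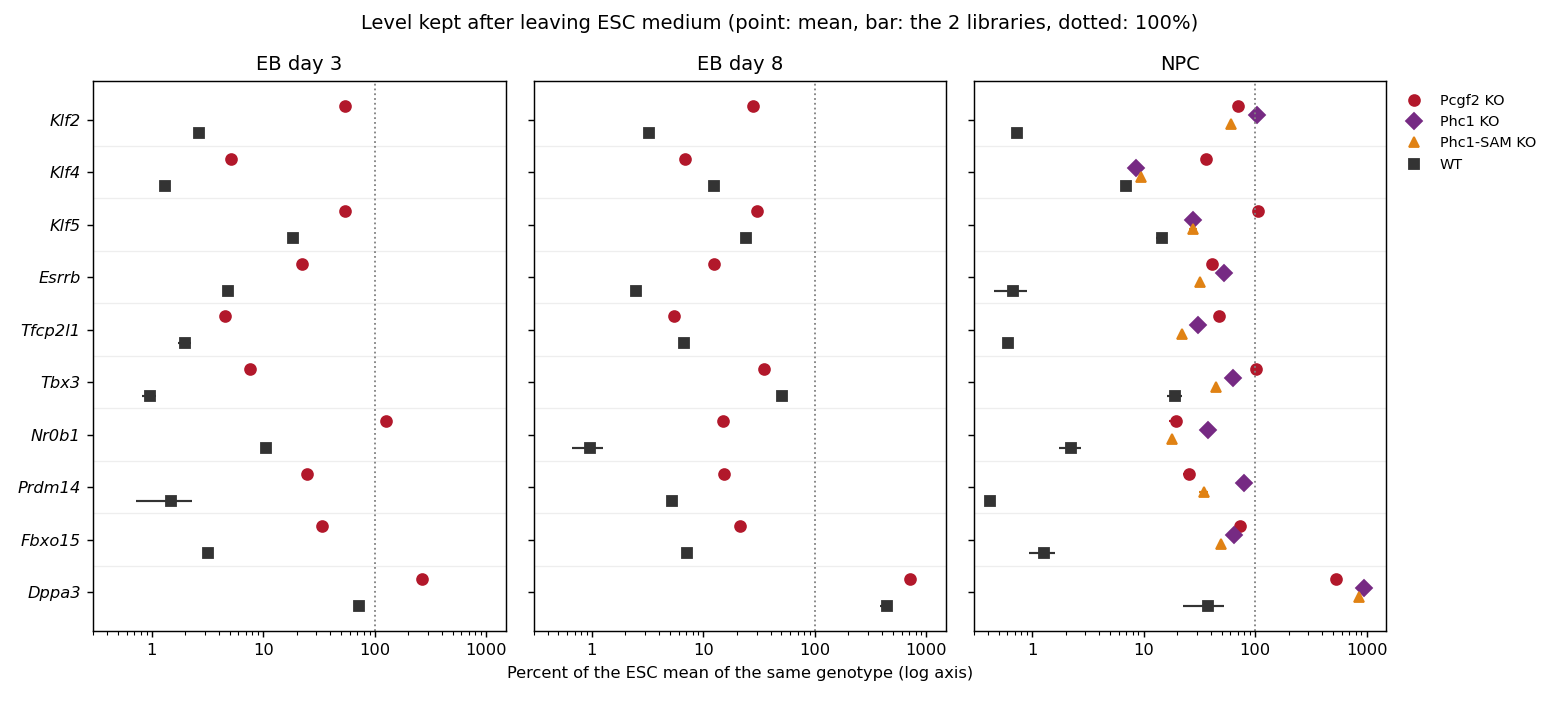
Level at EB day 3, EB day 8 and NPC as a percent of the ESC mean of the same genotype (log axis; points: mean of 2 libraries, bars: the 2 libraries, dotted line: 100%), with Phc1 KO and Phc1-SAM KO in the NPC panel. In NPC the median over the 10 genes was 58.8% in Pcgf2 KO, 58% in Phc1 KO, 33.3% in Phc1-SAM KO and 1.76% in WT, and Dppa3 lies to the right of 100% in the 3 knock-outs.

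Within Pcgf2 KO, most of the circuit was higher in NPC than in EB day 8, the reverse of WT. In Pcgf2 KO, 8 members were higher in NPC than in EB day 8 (35.8% of all genes were called higher), none was called lower, and Nr0b1 and Dppa3 were not called, with a median of 1.59 beside 0.08 over all genes. In WT, 9 members were lower in NPC than in EB day 8 (20.1% of all genes were called lower) and Nr0b1 was higher (38.1% were called higher), with a median of -1.39 beside 0.16. The rise of Nr0b1 in WT (1.56 and 0.998 TPM in NPC, 0.714 and 0.382 TPM in EB day 8, adjusted p = 0.01) was lost without NPC replicate 1 (0.1) or EB day 8 replicate 2 (0.091), and with median-of-ratios scaling (0.055). In Pcgf2 KO, Dppa3 (-0.4) was called lower under quantile normalization (-0.69, adjusted p = 0.0023) and median-of-ratios scaling (-0.53, 0.014), and the call of Prdm14 was lost with a pseudocount of 0.1 (0.053). The Pcgf2 KO effect was larger on NPC than in EB day 8 for 9 of 10 members, where 25.0% of all genes had such a positive difference, and Nr0b1 was not called (-0.23 ± 0.22, adjusted p = 0.42). NPC and EB day 8 differ in retinoic acid by label, and the day of NPC is not given, so agent and time cannot be told apart. Eif2s3y was at 57.5 TPM in WT EB day 8 and 1.58 TPM in WT NPC. In the WT change and the difference of effects, cell stock therefore cannot be told apart from agent and time.

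**Figure D4:**
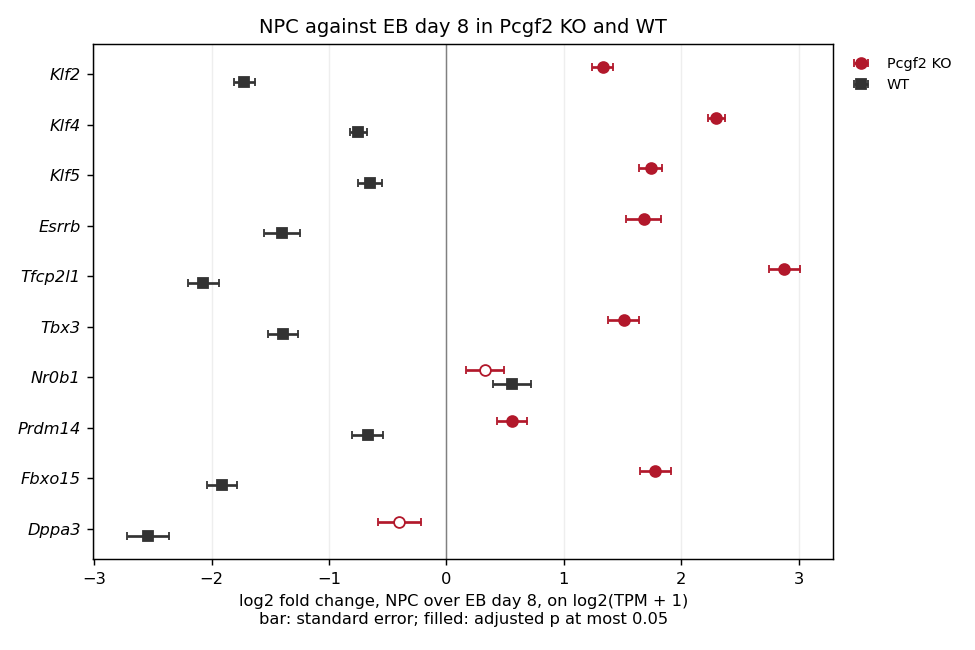
Log2 fold change of TPM + 1, NPC over EB day 8, for each member in Pcgf2 KO (red) and WT (grey), with SE bars. The points of the genotypes lie on opposite sides of 0 for 8 genes, with Tfcp2l1 at 2.88 in Pcgf2 KO and -2.07 in WT, while Nr0b1 is above 0 and Dppa3 below 0 in both.

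The KLF factors, zinc finger activators that can replace each other in ESC, did not behave alike. Klf2 (chr8:72319062-72321654 in GRCm38.p6, as all positions here), the one tied to MEK inhibition, was at 100 and 87.5 TPM in Pcgf2 KO and 7.34 and 6.58 TPM in WT EB day 3. At EB day 8 Klf2 was at 48.8 and 46.2 TPM in Pcgf2 KO and 8.76 and 8.34 TPM in WT, and in NPC at 130 and 113 TPM in Pcgf2 KO and 1.72 and 2.11 TPM in WT. Both Pcgf2 KO libraries were above both WT libraries at each of these stages, with log2 fold changes of 3.58 ± 0.09, 2.34 ± 0.09 and 5.4 ± 0.09 (SE). In Pcgf2 KO NPC this was 70.5% of the Pcgf2 KO ESC mean, against 0.732% in WT. Klf4 (chr4:55527137-55532475), the LIF-fed member, was at 9.04 and 9.5 TPM in Pcgf2 KO and 1.41 and 1.23 TPM in WT EB day 3, or 5.1% of ESC in Pcgf2 KO and 1.32% in WT. In NPC Klf4 was at 66.2 and 65.2 TPM in Pcgf2 KO and 7.18 and 6.74 TPM in WT (3.07 ± 0.07). Relative to its ESC mean, Klf4 in Pcgf2 KO thus stood at 5.1% in EB day 3 and 36.1% in NPC, beside 4.57% and 47.1% for Tfcp2l1. Klf5 (chr14:99298691-99313412), a factor shared with epithelia and trophectoderm, was at 24.8 and 28.4 TPM in Pcgf2 KO and 8.17 and 8.49 TPM in WT EB day 3. In NPC it was at 52.5 and 52.2 TPM in Pcgf2 KO and 7.26 and 5.88 TPM in WT NPC. Its WT levels were between 14.5% and 24% of ESC at the 3 later stages. Of the other KLF genes 9 of 13 tested were higher and 2 lower in Pcgf2 KO NPC than in WT NPC (median 0.82 beside -0.03). Of all genes 31.5% were called higher and 34.7% lower there. Klf9 was at 43.4 TPM in Pcgf2 KO and 3.74 TPM in WT, and Klf6 at 125 TPM in Pcgf2 KO and 12.5 TPM in WT. In EB day 3 the counts were 3 higher and 5 lower, near the background of 16.7% of all genes called higher and 31.9% lower. Klf6 was lower there (15.1 TPM in Pcgf2 KO, 33.1 TPM in WT).

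Esrrb (chr12:86361117-86521628), a direct target of Tcf7l1 repression, and Tfcp2l1 (chr1:118627923-118685168) stood far below their ESC level in both genotypes at EB day 3. Esrrb was at 53.5 and 53.5 TPM in Pcgf2 KO and 9.2 and 11.1 TPM in WT EB day 3, and at 31.2 and 28.6 TPM in Pcgf2 KO and 5.24 and 5.31 TPM in WT EB day 8. The Pcgf2 KO over WT difference was the same at both days (2.3 ± 0.15 each, SE), and the interaction was 0 ± 0.22. In NPC Esrrb was at 108 and 88.9 TPM in Pcgf2 KO and 0.965 and 1.89 TPM in WT (5.38 ± 0.15), or 40.8% and 0.681% of ESC. Tfcp2l1 was at 4.12 and 4.67 TPM in Pcgf2 KO and 1.33 and 1.76 TPM in WT EB day 3 (1.09 ± 0.13), the smallest difference among the members at that day. In NPC Tfcp2l1 was at 49.1 and 41.5 TPM in Pcgf2 KO and 0.492 and 0.46 TPM in WT (4.97 ± 0.13). Tfcp2l1 in Pcgf2 KO therefore stood at 4.57%, 5.47% and 47.1% of ESC in EB day 3, EB day 8 and NPC. The Pcgf2 KO effect on NPC less that in EB day 8 was 4.95 ± 0.19 for Tfcp2l1, the highest of the 10. Tbx3 (chr5:119670534-119684724), a T-box factor of the naive state and of later mesoderm and endoderm, was at 8.92 and 8.74 TPM in Pcgf2 KO and 0.763 and 1.03 TPM in WT EB day 3. In NPC Tbx3 was at 126 and 108 TPM in Pcgf2 KO and 20.7 and 15 TPM in WT (2.66 ± 0.13), and it was the highest member in WT EB day 8 and WT NPC. Relatives of these and other members (Esrra, Tfcp2, Ubp1, Tbx2, Prdm1 and others) were called higher for 1 and lower for 3 of 6 tested in Pcgf2 KO NPC. Of all genes 31.5% were called higher and 34.7% lower there. Tbx2 was at 7.39 TPM in Pcgf2 KO and 29.5 TPM in WT.

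Nr0b1 and Prdm14 hold back differentiation in ESC, the first as an orphan receptor that lacks a DNA-binding zinc finger and the second as a repressor of FGF signalling and DNA methylation genes. Nr0b1 (chrX:86191775-86195947) was at 50.2 and 47.3 TPM in Pcgf2 KO and 6.68 and 5.41 TPM in WT EB day 3, and the Pcgf2 KO level was 127% of ESC. At EB day 8 Nr0b1 was at 5.83 and 5.63 TPM in Pcgf2 KO and 0.714 and 0.382 TPM in WT, and in NPC at 8.56 and 6.48 TPM in Pcgf2 KO and 1.56 and 0.998 TPM in WT (1.9 ± 0.16). Nr0b1 was thus the member with the lowest percent of ESC in Pcgf2 KO NPC, at 19.6%, and the one with the smallest Pcgf2 KO over WT difference there. Prdm14 (chr1:13113428-13127163) was at 4.83 and 4.23 TPM in Pcgf2 KO and 0.295 and 0.0933 TPM in WT EB day 3, and at 5.19 and 4.14 TPM in Pcgf2 KO and 0.0536 and 0.0547 TPM in WT NPC. Its log2 fold changes (2.21 ± 0.13 and 2.42 ± 0.13) are on the scale of TPM + 1, which understates the change of a gene this low.

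Fbxo15 and Dppa3 are readouts of the state rather than regulators of it. Fbxo15 (chr18:84934552-84981476) was at 59.2 and 57.2 TPM in Pcgf2 KO and 3.33 and 3.69 TPM in WT EB day 3, and at 39.6 and 33.7 TPM in Pcgf2 KO and 8.27 and 7.42 TPM in WT EB day 8. In NPC Fbxo15 was at 131 and 125 TPM in Pcgf2 KO and 1.03 and 1.74 TPM in WT. Its log2 fold change of TPM + 1 was the largest of the set (5.77 ± 0.13, adjusted p = 2.3e-11). That scale understates members with lower WT levels, such as Tfcp2l1 and Prdm14, so the rank holds on it alone. Its mean was the highest of the members in Pcgf2 KO NPC, with libraries that overlapped those of Klf2. Dppa3 (chr6:122626424-122630271) was the member that was higher in NPC than in ESC in all 3 knock-outs. In Pcgf2 KO it was at 23 and 20.1 TPM in EB day 3, 60 and 55.3 TPM in EB day 8 and 43.1 and 43.6 TPM in NPC, each above the 7.26 and 8.89 TPM of Pcgf2 KO ESC. In WT it was at 1.51 and 1.58 TPM in EB day 3, 10.5 and 8.13 TPM in EB day 8 and 0.48 and 1.12 TPM in NPC. The WT maximum of Dppa3 fell on EB day 8, at 439% of ESC, the group that also stands apart by Eif2s3y. Primordial germ cell markers summed to 276 and 264 TPM in Pcgf2 KO and 12.3 and 10.3 TPM in WT NPC, with 6 of 6 genes at 1 TPM or more in Pcgf2 KO and 4 of 6 in WT. In EB day 8, where Dppa3 was highest, these markers summed to 43.4 and 39.8 TPM in Pcgf2 KO and 17.3 and 16.8 TPM in WT. The part of such cells in the Dppa3 level was not tested.

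Most of the other naive markers were higher in Pcgf2 KO than in WT at EB day 3, EB day 8 and NPC, and more of the core factors were at EB day 8 and NPC than at EB day 3. Of the other naive markers 9 of 9 were higher in Pcgf2 KO than in WT EB day 3 (median 2.13 beside -0.11 over all genes), led by Jam2 (33 TPM in Pcgf2 KO, 2.04 TPM in WT) and Zfp42 (244 TPM in Pcgf2 KO, 26.8 TPM in WT). In NPC 7 of 9 were higher and 1 lower (median 3.03 beside -0.03), where 31.5% of all genes were called higher and 34.7% lower. They were led by Dppa5a at 1460 TPM in Pcgf2 KO and 9.86 TPM in WT and by Zfp42, also known as Rex1, at 224 TPM in Pcgf2 KO and 1.03 TPM in WT. Gbx2 (42.1% of ESC in Pcgf2 KO NPC and 143% in WT NPC), Zfp57 (22.2% and 23.6%) and Jam2 (15.8% and 12.3%) did not share the gap of the members in percent of ESC. In WT, 3 of these markers were higher and 4 lower at EB day 8 than at EB day 3 (median -0.2, against 0.74 for the members). Of all genes 33.6% were called higher and 24.0% lower there. Of the core factors Pou5f1, Sox2, Nanog and Sall4, 1 of 4 was higher in Pcgf2 KO EB day 3 (Sox2, 332 TPM in Pcgf2 KO and 123 TPM in WT), 3 of 4 in EB day 8 and 4 of 4 in NPC. The shares of all genes called higher in Pcgf2 KO were 16.7% in EB day 3, 20.6% in EB day 8 and 31.5% in NPC. In NPC Pou5f1 was at 318 and 341 TPM in Pcgf2 KO and 0.804 and 1.48 TPM in WT, and Nanog at 221 and 206 TPM in Pcgf2 KO and 1.94 and 2.11 TPM in WT. Relative to ESC, Pou5f1 in NPC stood at 25.8% in Pcgf2 KO, 36.6% in Phc1 KO, 21.4% in Phc1-SAM KO and 0.0738% in WT. Sox2 stood at 36.1% in Pcgf2 KO, 64.2% in Phc1 KO, 26.9% in Phc1-SAM KO and 17.4% in WT, and Nanog at 36.5%, 70.9%, 33.8% and 0.447% in the same genotypes. Sall4 stood at 166% in Pcgf2 KO, 91.3% in Phc1 KO, 55.4% in Phc1-SAM KO and 20.4% in WT. The core factors thus lay on both sides of the members' medians of 58.8%, 58%, 33.3% and 1.76%.

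Genes of the signalling inputs had smaller median differences than the members in NPC and EB day 3, but the LIF and Stat3 genes did not in ESC. There 4 of 7 were higher in Pcgf2 KO and none was called lower, where 24.9% of all genes were called higher and 11.0% lower. The median was 0.84 against 0.31 for the members. Of the LIF and Stat3 genes 5 of 7 were higher and none was called lower in Pcgf2 KO NPC (median 0.3 beside -0.03), where 31.5% of all genes were called higher. The Stat3 target Pim1 was at 94.2 TPM in Pcgf2 KO and 36.6 TPM in WT NPC. In EB day 3, 2 of 7 were higher and 1 lower, where 16.7% of all genes were called higher and 31.9% lower. Socs3, a feedback inhibitor and Stat3 target, was at 28.5 TPM in Pcgf2 KO and 14.7 TPM in WT ESC. Of the Wnt and TCF genes 2 of 7 were higher and 4 lower in Pcgf2 KO NPC, where 31.5% of all genes were called higher and 34.7% lower, so these counts stand near the background. Among those higher was the repressor Tcf7l1 (237 TPM in Pcgf2 KO, 67.6 TPM in WT). In EB day 3 these were 2 higher and 4 lower of 7, with Gsk3b at 9.34 TPM in Pcgf2 KO and 25.3 TPM in WT. Of the FGF and ERK genes 7 of 9 were higher and 1 lower in Pcgf2 KO NPC (median 0.76). Fgf4, a ligand made by ESC, was at 11.2 TPM in Pcgf2 KO and 0.057 TPM in WT, and Etv5, a gene read as an ERK response, at 38.3 TPM in Pcgf2 KO and 6.26 TPM in WT. Of the exit machinery (Flcn, Fnip1, Tfe3, Tfeb, Zfp281, Mbd3 and others) 9 of 10 were higher and 1 lower in Pcgf2 KO NPC (median 0.68), led by Tfeb at 52.5 TPM in Pcgf2 KO and 5.47 TPM in WT. In EB day 3, 2 of 10 were higher and 5 lower, beside 16.7% of all genes called higher and 31.9% lower. Formative genes were 2 higher and 5 lower of 9 in Pcgf2 KO EB day 3 (median -0.48), where 31.9% of all genes were called lower, with Dnmt3b at 412 TPM in Pcgf2 KO and 867 TPM in WT. They were 7 higher and 1 lower in EB day 8 (median 1.4), where 20.6% of all genes were called higher and 17.1% lower. Otx2 was at 60.4 TPM in Pcgf2 KO and 6.92 TPM in WT EB day 8. In WT these formative genes had fallen again by EB day 8, 8 of 9 relative to EB day 3, where 24.0% of all genes were called lower.

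The labelled identity of NPC was checked against neural progenitor markers (Pax6, Sox1, Nes, Hes5 and Neurog2). They summed to 19.9 and 18.5 TPM in Pcgf2 KO and 263 and 325 TPM in WT NPC, with 2 of 5 genes at 1 TPM or more in Pcgf2 KO and 5 of 5 in WT. Of these markers 5 of 5 were called lower in Pcgf2 KO, where 34.7% of all genes were called lower. Hes5, a Notch target of neural progenitors, was at 0.367 and 0.425 TPM in Pcgf2 KO and 55 and 92.1 TPM in WT NPC. In Phc1 KO and Phc1-SAM KO NPC these markers summed to 22 and 21.9 TPM and to 19.3 and 19.5 TPM. In Phc1 KO NPC 2 of 5 and in Phc1-SAM KO NPC 3 of 5 were at 1 TPM or more. The summed markers of the knock-out libraries labelled NPC were thus far below those of WT NPC. Surface epithelium markers summed to 3090 and 3650 TPM in Pcgf2 KO and 412 and 403 TPM in WT NPC. Markers of the 2-cell-like state (Zscan4 genes, Zfp352, Tcstv1 and Tcstv3) summed to 412 and 344 TPM in Pcgf2 KO and 1.54 and 1.49 TPM in WT NPC. Trophectoderm markers summed to 101 and 107 TPM in Pcgf2 KO and 21.7 and 21.7 TPM in WT NPC. Other marker lists had higher sums in WT NPC. Endothelium markers summed to 26 and 25.1 TPM in Pcgf2 KO and 116 and 87.4 TPM in WT. Mesenchyme markers summed to 4.2 and 4.41 TPM in Pcgf2 KO and 203 and 173 TPM in WT. Lateral mesoderm and heart markers summed to 14.2 and 12.7 TPM in Pcgf2 KO and 121 and 94.3 TPM in WT. Visceral endoderm markers summed to 11.6 and 11 TPM in Pcgf2 KO and 19.3 and 13.4 TPM in WT. Klf5, Tbx3, Dppa3 and Prdm14 are also expressed in some of these cell types, and the part of those cells in the members' NPC levels was not tested. Reads of the near-identical Zscan4 copies may be split between them.

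Phc1 KO and Phc1-SAM KO cells, in a separate table whose WT columns were not used here, allowed a comparison of these 2 genotypes as labelled. In ESC the members were slightly lower in Phc1 KO than in Phc1-SAM KO: 8 of 10 were called lower (12.8% of all 15775 genes tested), none was called higher, and the median was -0.29 beside 0.13 over all genes. Nr0b1 was at 43.4 and 42 TPM in Phc1 KO and 77.8 and 75.5 TPM in Phc1-SAM KO ESC, the largest difference (-0.83 ± 0.06, adjusted p = 6.9e-05). Esrrb was at 239 and 238 TPM in Phc1 KO and 320 and 316 TPM in Phc1-SAM KO ESC (-0.42 ± 0.03, adjusted p = 5.7e-05), and Klf2 at 146 and 144 TPM in Phc1 KO and 180 and 172 TPM in Phc1-SAM KO ESC (-0.28 ± 0.04, adjusted p = 0.0021). The members not called were Klf4 (176 and 186 TPM in Phc1 KO, 193 and 183 TPM in Phc1-SAM KO), which was called lower with median-of-ratios scaling (-0.28), and Dppa3 (5.51 and 3.6 TPM in Phc1 KO, 2.67 and 3.28 TPM in Phc1-SAM KO), which was called higher without Phc1 KO replicate 2 (0.72, adjusted p = 0.0074). The calls of Klf5 (-0.3), Tbx3 (-0.35) and Fbxo15 (-0.16) were the weak ones. Klf5 was lost without any 1 of the 4 libraries, though its value stayed at -0.3 to -0.29. Tbx3 was lost without Phc1 KO replicate 2 (-0.24) or Phc1-SAM KO replicate 1 (-0.32). Fbxo15 was lost without Phc1 KO replicate 1 (-0.16), Phc1 KO replicate 2 (-0.16) or Phc1-SAM KO replicate 2 (-0.11). Its call was also lost with no filter on low values (adjusted p = 0.052), no variance trend (0.093) or a replicate block (0.055). The core factors stood the same way, 4 of 4 lower in Phc1 KO ESC, with Pou5f1 at 1140 TPM in Phc1 KO and 1800 TPM in Phc1-SAM KO. Mesenchyme markers were higher in Phc1 KO ESC, at a sum of 370 and 390 TPM in Phc1 KO and 16.4 and 15.7 TPM in Phc1-SAM KO, and their part was not tested.

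In NPC the order was the other way for some members. Of the 10, 4 were called higher in Phc1 KO than in Phc1-SAM KO NPC (2.52% of all genes were called higher), none was called lower and 6 were not called, with a median of 0.23 beside 0.04 over all genes. Klf2 was at 147 and 154 TPM in Phc1 KO and 104 and 109 TPM in Phc1-SAM KO NPC (0.49 ± 0.04, adjusted p = 0.004), and Esrrb at 124 and 125 TPM in Phc1 KO and 103 and 101 TPM in Phc1-SAM KO NPC (0.29 ± 0.03, adjusted p = 0.0053). Tfcp2l1 (0.24 ± 0.04) and Prdm14 (0.55 ± 0.1) had an adjusted p of 0.036 each. Both calls were lost without any 1 of the 4 libraries, at values of 0.22 to 0.26 for Tfcp2l1 and 0.43 to 0.67 for Prdm14. Both were also lost without the variance trend (adjusted p = 0.09 and 0.052), with the replicate block (0.073 and 0.062) and with only the groups compared (0.1 and 0.088). Tfcp2l1 was lost with median-of-ratios scaling (0.066) and quantile normalization (0.08), and Prdm14 with no filter on low values (0.059). Esrrb was lost without Phc1 KO replicate 1 (0.052) or replicate 2 (0.061). Klf2 kept its call without any of the 4. Dppa3 had the largest value without a call (44.3 and 41.3 TPM in Phc1 KO, 24.9 and 26.3 TPM in Phc1-SAM KO, 0.72 ± 0.17, adjusted p = 0.069). Klf4 and Klf5 were lower in value in Phc1 KO (15.4 and 15.8 TPM against 18.7 and 17.1 TPM, and 14.1 and 13.5 TPM against 15.6 and 18.3 TPM in Phc1-SAM KO), without passing the test. The NPC difference less the ESC difference was positive and called for 7 of 10 members (10.7% of all genes had such a positive difference, 20.7% with median-of-ratios scaling), from 0.36 for Fbxo15 to 1.1 for Prdm14, and not called for Klf4, Klf5 and Dppa3. The call of Tbx3 in it (0.52, adjusted p = 0.016) was lost without Phc1-SAM KO ESC replicate 1 (0.052) or Phc1 KO NPC replicate 1 (0.058).

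**Figure D5:**
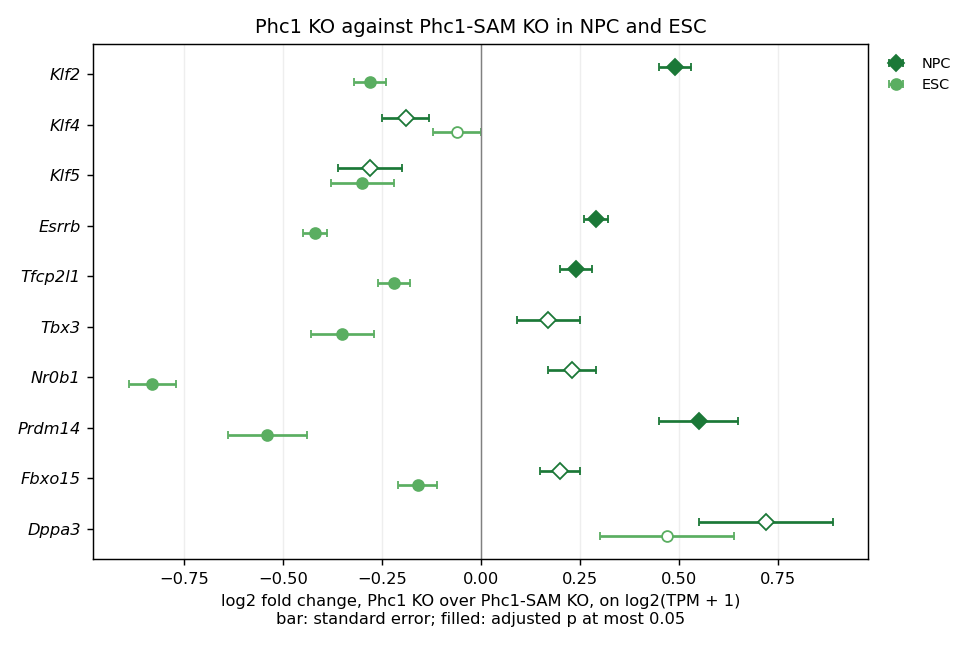
Log2 fold change of TPM + 1, Phc1 KO over Phc1-SAM KO, for each member in NPC and in ESC, with SE bars and filled points for adjusted p at most 0.05. In ESC the called points lie below 0, down to -0.83 for Nr0b1, and in NPC the called points (Klf2, Esrrb, Tfcp2l1 and Prdm14) lie above 0, up to 0.55.

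Relative to their own ESC, 8 members were lower in Phc1 KO NPC (27.8% of all genes were called lower), Dppa3 was higher (35.0% were called higher) and Klf2 was not called (147 and 154 TPM in NPC, 146 and 144 TPM in ESC), though it was called higher with quantile normalization (0.19, adjusted p = 0.0092). In Phc1-SAM KO NPC 9 were lower (23.8% of all genes) and Dppa3 was higher (43.8%). The call of Prdm14 in Phc1 KO (-0.32, adjusted p = 0.029) was lost without any 1 of the 4 libraries (adjusted p of 0.062 to 0.13). Klf4 stood lowest against its ESC level in both, at 8.6% in Phc1 KO and 9.54% in Phc1-SAM KO, beside 36.1% in Pcgf2 KO and 6.95% in WT. Klf5 was at 27.9% in Phc1 KO and 27.8% in Phc1-SAM KO, beside 107% in Pcgf2 KO and 14.5% in WT. For all 10 members the percents of both Phc1 genotypes were above that of WT, with Klf2 at 104% in Phc1 KO, 60.6% in Phc1-SAM KO, 70.5% in Pcgf2 KO and 0.732% in WT. Dppa3 was at 939% in Phc1 KO, 860% in Phc1-SAM KO, 537% in Pcgf2 KO and 37.5% in WT. The 2 tables were made separately, so these percents are set side by side with no test between tables.

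Among 7728 other genes with at least 10 TPM in WT ESC, those nearest to the mean profile of the members over the 8 Pcgf2 KO and WT groups were Nr5a2 and Tekt1 (root mean square difference of log2 values 0.45 each), M1ap (0.47), Slc30a2 (0.48) and Zbtb32 (0.5). Nr5a2, an orphan nuclear receptor of the naive state, was at 19.1 and 16.4 TPM in Pcgf2 KO and 1.62 and 1.02 TPM in WT NPC. Of the members themselves Prdm14 (0.42) and Fbxo15 (0.65) lay nearest to that mean, and Dppa3 farthest (3.85). The gene nearest to each member was Zfp42-ps1 for Klf2 (0.44) and for Esrrb (0.43), Phf11d for Klf4 (0.7), Ubxn2a for Klf5 (0.21), Pou2f3 for Tfcp2l1 (0.54), Pdgfa for Tbx3 (0.97), Rbmxl2 for Nr0b1 (0.64), Tekt1 for Prdm14 (0.25), AU018091 for Fbxo15 (0.57) and Fmr1nb for Dppa3 (1.1). Zfp42-ps1 is annotated by name as a pseudogene of Zfp42, so its reads may be those of Zfp42 and its level is uncertain.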

How the data were processed

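RNA-seq values of 24 mouse libraries in 12 labelled groups of 2 were used. The authors deposited 2 tables of TPM per gene; per the submitters' processing notes the study used kallisto and mm10. Other tools are listed there with no role, and no versions are stated. The 4 WT columns of per-sample values in the table with Phc1 KO libraries were not used, and ChIP-seq and Hi-C samples were not analysed here. Rows of the 10 members were taken by symbol. A gene entered the fit if 2 or more libraries had 1 TPM or more (17938 and 15775 genes). On log2(TPM + 1), limma 3.58.1 in R 4.3.3 (lmFit, eBayes with trend, one mean per group) was fitted to each table, two-sided, with Benjamini-Hochberg adjustment over all genes and a threshold of 0.05. The fit was tested on simulated data. A fold change is on the log2(TPM + 1) scale and understates changes of low genes. Of 21 comparisons, 2 were added after seeing the data: the Pcgf2 KO effect on NPC less that in EB day 8, and the Phc1 KO over Phc1-SAM KO difference in NPC less that in ESC. Tables were summarised with pandas 2.3.3 in Python 3.11.15. Besides the members, up to 2 called genes of largest change were named per list and comparison, with Pcgf2, Phc1 and Eif2s3y as checks and the nearest genes by root mean square difference. The members, the 19 other lists and the tests were chosen with earlier results of these data known. Alternatives were another pseudocount (0.1), no filter or 5 TPM, median-of-ratios scaling, quantile normalization, no variance trend, only the groups compared, a replicate block and each library left out.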

Additional observations from a re-analysis of the deposited data

Results flagged for a closer look

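The values here are differences of 2 genotype effects on the log2(TPM + 1) scale, each past an adjusted p of 0.05 in limma's test of the difference itself. On this scale the gap between the genotypes as labelled was thus not the same at the stages compared. The Pcgf2 KO effect on EB day 3 less that in ESC was 4.17 for Klf2, 1.29 for Klf4, 1.45 for Klf5, 2.1 for Esrrb, 0.77 for Tfcp2l1, 2.07 for Tbx3, 3.39 for Nr0b1, 1.74 for Prdm14, 3.05 for Fbxo15 and 1.61 for Dppa3. The effect in EB day 8 less that in EB day 3 was -1.23 for Klf2, -2.13 for Klf4, -1.14 for Klf5, -1.07 for Tfcp2l1, -2.61 for Tbx3, -0.7 for Nr0b1, -1.03 for Prdm14 and -1.63 for Fbxo15. The value of Nr0b1 depended on the scale and was 0.22 with a pseudocount of 0.1. The effect on NPC less that in ESC was 5.99 for Klf2, 2.21 for Klf4, 2.71 for Klf5, 5.17 for Esrrb, 4.65 for Tfcp2l1, 2.35 for Tbx3, 2.46 for Nr0b1, 1.94 for Prdm14, 5.11 for Fbxo15 and 3.11 for Dppa3. The effect on NPC less that in EB day 8 was 3.05 for Klf2, 3.05 for Klf4, 2.4 for Klf5, 3.08 for Esrrb, 4.95 for Tfcp2l1, 2.89 for Tbx3, 1.23 for Prdm14, 3.69 for Fbxo15 and 2.13 for Dppa3. Eif2s3y was apart between Pcgf2 KO and WT at each stage but EB day 8, so cell stock and genotype cannot be told apart in these differences. The Phc1 KO over Phc1-SAM KO difference in NPC less that in ESC was 0.77 for Klf2, 0.71 for Esrrb, 0.46 for Tfcp2l1, 0.52 for Tbx3, 1.06 for Nr0b1, 1.1 for Prdm14 and 0.36 for Fbxo15.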

How the results depend on the processing

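Of 210 tests of a member in a comparison, 181 were called and 162 of these were called under every alternative tried. Reversed values were -0.08 for Klf2 (EB day 8 over EB day 3 in WT) and -0.08 for Klf4 (the same in Pcgf2 KO) with quantile normalization, -0.31 and -0.28 for Klf5 (NPC over ESC in Pcgf2 KO) with median-of-ratios scaling and quantile normalization, -0.4 for Tbx3 (the same comparison) with median-of-ratios scaling, and 0.22 for Nr0b1 (Pcgf2 KO effect on EB day 8 less that in EB day 3) with a pseudocount of 0.1. The cause was not tested. The 4 members called between Phc1 KO and Phc1-SAM KO NPC were 2 without the variance trend, 2 with the replicate block and 1 to 2 without single libraries. Over all genes that comparison had 637 calls, against 353 without the trend, 302 with the block, 364 with only the groups compared and 65 to 150 without single libraries. Pcgf2 KO over WT in ESC had 6452 calls, against 4098 with only the groups compared and 2436 with a block added. Replicate numbers only share a number: differences between replicates correlated at -0.184 to 0.0954 in the groups compared. With the block, 6, 10, 7 and 10 members were called for Pcgf2 KO over WT in ESC, EB day 3, EB day 8 and NPC, 7 for Phc1 KO over Phc1-SAM KO in ESC (8 without it) and 9 for NPC over EB day 8 in Pcgf2 KO (8 without it). In ESC with only the groups compared, 5 were called with the numbered block and 9 with the crossed block, an alternative chosen after seeing the data. Scaling mattered for all genes: the share of calls that were higher was 69.3% for Pcgf2 KO over WT in ESC and 48.2% with median-of-ratios scaling, 71.2% and 49.3% for NPC over ESC in WT, 71.1% and 50.4% for the same in Pcgf2 KO, and 70.6% and 43.3% for Phc1 KO over Phc1-SAM KO in ESC. Depth is unknown, so precision at low TPM could not be set.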
